A study of Mus musculus with 9 samples.

Results

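RG6146 and JQ1, both inhibitors of the BET bromodomain proteins, were compared directly in 6 of the 9 libraries of the study. The 6 were chosen by the compound named in their labels: 3 libraries of lymphoma cells given 2.5 µM RG6146 and 3 of cells given 1 µM JQ1, each for 2 h. The other 3 libraries, from cells given the solvent DMSO, served to define which genes respond to the inhibitors. Every group was made from clone 4242 of an Eµ-Myc lymphoma, a mouse B-cell lymphoma that carries a Myc transgene under the immunoglobulin heavy chain enhancer, which is active in B cells. The labels call each group a biological triplicate, all of this 1 clone, so the p-values measure only the spread between libraries of that clone. Because the doses differed, compound and dose cannot be told apart in any difference given here.

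The BET proteins, BRD2 and BRD3 among them, bind acetylated lysines on histones through their bromodomains and help to recruit the elongation kinase P-TEFb to RNA polymerase II. A BET inhibitor occupies the pocket that binds the acetylated lysine and releases these proteins from chromatin. In B-cell cancers such inhibitors are known for lowering transcripts that depend on strong enhancers, many of them genes of B cell identity, and for raising Hexim1, whose protein holds P-TEFb inactive and whose transcript is a widely used marker of BET inhibition.

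RNA was read at the 3′ ends of polyadenylated transcripts (QuantSeq), and the deposited table holds raw counts per gene. Gene counts per library were 3964732 to 5031717 under JQ1 and 3947240 to 4609612 under RG6146. Mitochondrially encoded transcripts took 4.74% to 6.18% of gene counts under JQ1 and 5.60% to 5.92% under RG6146. The B cell markers Cd79a and Cd79b, the signalling subunits of the B cell receptor, were present at 37.1 ± 1.62 CPM (SD, n = 3) and 43.3 ± 2.05 CPM under JQ1, and at 36.3 ± 1.37 CPM and 45.9 ± 4.94 CPM under RG6146. CPM here are counts scaled to the library size, after TMM normalisation. Cd74 was low, at 6.16 ± 1.74 CPM under JQ1 and 9.71 ± 2.88 CPM under RG6146.

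RG6146 and JQ1 libraries lay as close to each other as libraries of the same compound. The root mean square difference in log2 level over 11002 tested genes was 0.480 to 0.539 in the 9 pairs of a JQ1 with an RG6146 library, against 0.485 to 0.562 between JQ1 libraries and 0.511 to 0.517 between RG6146 libraries. From DMSO, JQ1 libraries lay 0.710 to 0.759 away and RG6146 libraries 0.699 to 0.743. Among the 6 treated libraries the first principal component held 25.6% of the variance and did not part the compounds: JQ1 libraries scored -15.4, 29.2 and -22.7, and RG6146 libraries -0.454, 15.5 and -6.18. JQ1 replicate 2 lay farthest from the other treated libraries on that component.

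A single gene of 11002 was called different between the compounds, 0.00909% of those tested (edgeR quasi-likelihood test, adjusted p below 0.05), and it was higher under RG6146. At an unadjusted p below 0.05 there were 427 genes, 3.88%. The 3 RG6146 libraries lay wholly above or wholly below the 3 JQ1 libraries for 1092 genes, 9.93% of those tested, with RG6146 above in 593 and below in 499. The median difference over all genes, RG6146 minus JQ1 on the log2 scale, was 0.00, with quartiles of -0.11 and 0.12.

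Since a p that misses the threshold does not show likeness, the 95% interval of each difference was set against fixed bounds. It lay wholly within 2-fold in either direction for 9052 genes, 82.3%, and within 1.5-fold for 6640, 60.4%, with no adjustment for the number of genes. These are Wald intervals, which can be narrower than the quasi-likelihood test used for the calls implies. For Il16, described below, the interval of -0.96 to -0.02 left out 0 while the unadjusted p was 0.076 (edgeR). For the remaining 1950 genes the interval reached 2-fold or beyond, and 180 genes, 1.64%, had an estimate over 2-fold.

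The strongest responses to BET inhibition were nearly equal under both compounds. The largest rise, Tspoap1, which encodes a RIM-binding protein, reached 137, 133 and 137 CPM in the JQ1 libraries and 121, 131 and 150 CPM in the RG6146 libraries, from 4.70, 5.69 and 5.27 CPM under DMSO. The treated groups overlapped, and all 6 treated libraries stood far above DMSO. The difference between the compounds was -0.02 ± 0.09 (SE) on the log2 scale, with an interval of -0.21 to 0.17, beside fold changes against DMSO of 4.70 ± 0.12 for JQ1 and 4.68 ± 0.12 for RG6146. The 2 comparisons with DMSO share the DMSO libraries here and throughout, so their values are given only side by side. Less RNA per cell and fewer cells of a kind cannot be told apart in such bulk libraries.

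Other large rises among genes with at least 10 CPM, Cnnm4, Hist1h2bc and Fzd5, also overlapped between the compounds, and Zswim6 did not. Cnnm4, a magnesium transporter gene, differed by -0.08 ± 0.16, the histone gene Hist1h2bc by 0.20 ± 0.13 and the Wnt receptor gene Fzd5 by -0.10 ± 0.19. Zswim6 measured 50.9, 48.1 and 50.5 CPM under JQ1 and 47.0, 44.8 and 43.8 CPM under RG6146, against 9.97, 9.67 and 9.83 CPM under DMSO. Its RG6146 libraries were all below its JQ1 libraries by a small step, a log2 difference of -0.14 ± 0.10 with an interval of -0.35 to 0.07.

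Among the large falls Il7r, the receptor of interleukin 7, measured 2.104, 1.43 and 1.83 CPM under JQ1, 1.37, 2.53 and 2.27 CPM under RG6146 and 33.1, 34.7 and 25.4 CPM under DMSO. The treated groups overlapped at a level near the lower end of what was tested, and the difference of 0.18 ± 0.34 had a wide interval, -0.54 to 0.91. The leukotriene receptor gene Cysltr1 differed by 0.04 ± 0.21 and the corepressor gene Cbfa2t3 by -0.20 ± 0.25. Mast4, a kinase gene that overlaps Cd180 on the opposite strand, differed by -0.00 ± 0.26, and Gm12481, which lies within Fam221b on the opposite strand, by 0.02 ± 0.60. How the counting treated strand is not given in the sources used here, so reads of such overlapping genes may not be separated.

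Il16, which encodes a cytokine, was the only one of the 6 largest falls at 10 CPM or more over the 9 libraries whose treated groups did not overlap. It measured 4.63, 6.19 and 4.71 CPM under JQ1 and 3.19, 3.54 and 4.32 CPM under RG6146, from 33.9, 30.1 and 32.4 CPM under DMSO. RG6146 libraries were lower, by 0.48 ± 0.22 on the log2 scale (unadjusted p = 0.076, adjusted p = 0.999, edgeR). Both compounds left it far below every DMSO library.

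Hexim1, on chromosome 11 (103116231 to 103119725, mm10), gave 394, 392.5 and 400 CPM under JQ1 and 376, 377 and 363 CPM under RG6146, against 138, 129 and 140 CPM under DMSO. RG6146 was slightly below JQ1 in every library, and the groups did not overlap. The log2 difference was -0.09 ± 0.07 with an interval of -0.23 to 0.05, beside rises of 1.55 ± 0.07 for JQ1 and 1.46 ± 0.07 for RG6146. Bcl2l11, the gene of BIM, a protein that promotes apoptosis, stood at 149, 150 and 155 CPM under JQ1 and at 148, 149 and 147 CPM under RG6146, from 42.9, 37.8 and 37.9 CPM under DMSO. Its difference was -0.03 ± 0.08, and it took the opposite sign, 0.003, with ERCC scaling.

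Of the drug targets' own transcripts, Brd2 gave 1678, 1773 and 1682 CPM under JQ1 and 1395, 1067 and 1909 CPM under RG6146, from 426, 583 and 564 CPM under DMSO. The RG6146 libraries spread widely around the JQ1 libraries, and the difference was -0.23 ± 0.23. Brd3 differed by -0.01 ± 0.08, with an interval of -0.18 to 0.17, and was not called against DMSO in the average of the compounds.

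Myc, on chromosome 15 (61985391 to 61990374, mm10), was higher in all RG6146 than in all JQ1 libraries, without passing the adjusted test. It measured 128, 174 and 154 CPM under JQ1, 201, 178 and 207 CPM under RG6146 and 125, 113 and 103 CPM under DMSO. No JQ1 library reached the lowest RG6146 library, though the closest were near each other. The difference was 0.36 ± 0.11 with an interval of 0.14 to 0.59 (unadjusted p = 0.0038, adjusted p = 0.999, edgeR), beside fold changes against DMSO of 0.42 ± 0.11 for JQ1 and 0.78 ± 0.11 for RG6146. A count per gene does not separate the transgene from the endogenous gene.

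Bcl2, the anti-apoptotic founder of its family, differed by -0.00 ± 0.09 with levels of 82.1 to 92.6 CPM in the JQ1 libraries and 85.5 to 87.5 CPM in the RG6146 libraries. Cdk6, a kinase of the G1 phase, differed by 0.25 ± 0.21 and overlapped. Serpini1, Cd274 and Ccr2, which the rule also names, had at most 11, 7 and 6 raw counts in any library and were not tested.

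**Figure D1:**
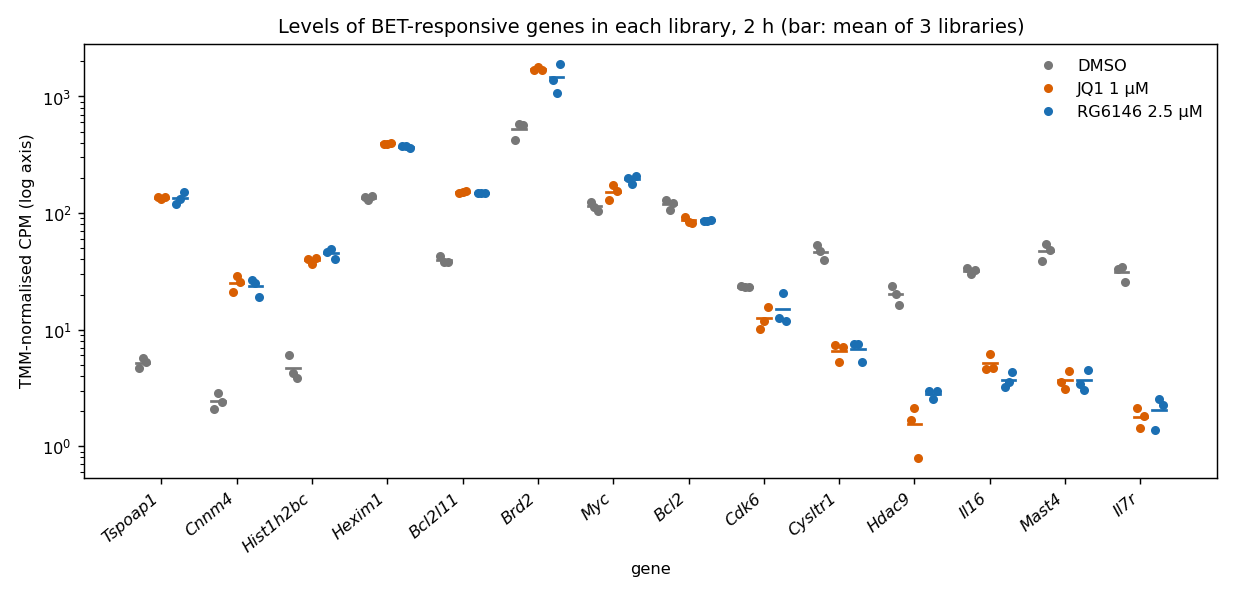
Level of 14 genes in each of the 9 libraries (TMM-normalised CPM, log axis), with points for libraries and bars for the mean of 3. For Tspoap1, Hexim1 and Bcl2l11 the JQ1 and RG6146 points lie together above DMSO, for Il7r and Mast4 together below it, and for Myc the RG6146 points lie above the JQ1 points.

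How close the compounds were was then read by the size of the response. Genes were classed by the average of both compounds against DMSO, a contrast that weights the treated groups equally. It called 3670 genes, 33.4% of those tested: 1721 higher, 15.6% of those tested, and 1949 lower, 17.7%. Higher genes made up 46.9% of these calls, 27.8% with library size scaling without TMM and 39.5% with ERCC scaling. With ERCC scaling and the replicate number fitted as a block the share was 46.2%. The changes exceeded 2-fold in 263 higher and 571 lower genes.

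Genes over 2-fold higher had a slightly smaller median response under RG6146. The median log2 response was 1.42 for JQ1 and 1.34 for RG6146, and the median difference was -0.06, with quartiles of -0.18 and 0.08. JQ1 was the further from DMSO in 164 of the 263 genes, 62.4%. Relative to the mean of the 6 treated libraries, the class median was 0.029, 0.012 and 0.071 in the JQ1 libraries and -0.014, -0.013 and -0.005 in the RG6146 libraries. These library medians did not overlap, but they lay within 0.09 of each other, while DMSO libraries were lower by over 1. None of the 263 was called between the compounds by edgeR, and 12 had an unadjusted p below 0.05. The median difference was -0.03 without RG6146 replicate 1, RG6146 replicate 2 or DMSO replicate 1.

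Genes over 2-fold lower showed no such order between libraries. Their median response was -1.43 for JQ1 and -1.39 for RG6146, and the median difference was 0.02, with quartiles of -0.21 and 0.26. The class medians were -0.006, 0.078 and -0.105 in the JQ1 libraries and 0.035, 0.048 and 0.027 in the RG6146 libraries, so that the groups overlapped and JQ1 libraries spread more. Without JQ1 replicate 2 the median difference was 0.15. JQ1 was the further from DMSO in 312 of the 571, 54.6%. None was called by edgeR, and 32 had an unadjusted p below 0.05.

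In the classes of smaller response more intervals lay within the bounds, at higher median levels of 53.6 CPM for the higher genes and 23.4 CPM for the lower. The 1458 genes higher by up to 2-fold had a median difference of -0.02, and 99.3% of their intervals lay within 2-fold and 89.6% within 1.5-fold. The 1378 genes lower by up to 2-fold had a median of 0.03, with 96.5% within 2-fold and 74.5% within 1.5-fold. RG6146 libraries lay wholly below JQ1 in 110 and wholly above in 65 of the former, and wholly above in 118 and below in 56 of the latter. Together these are 12.0% and 12.6% of the classes, near the 9.93% of all genes. Among the 7332 genes not called, 364 had RG6146 above and 291 below.

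**Figure D2:**
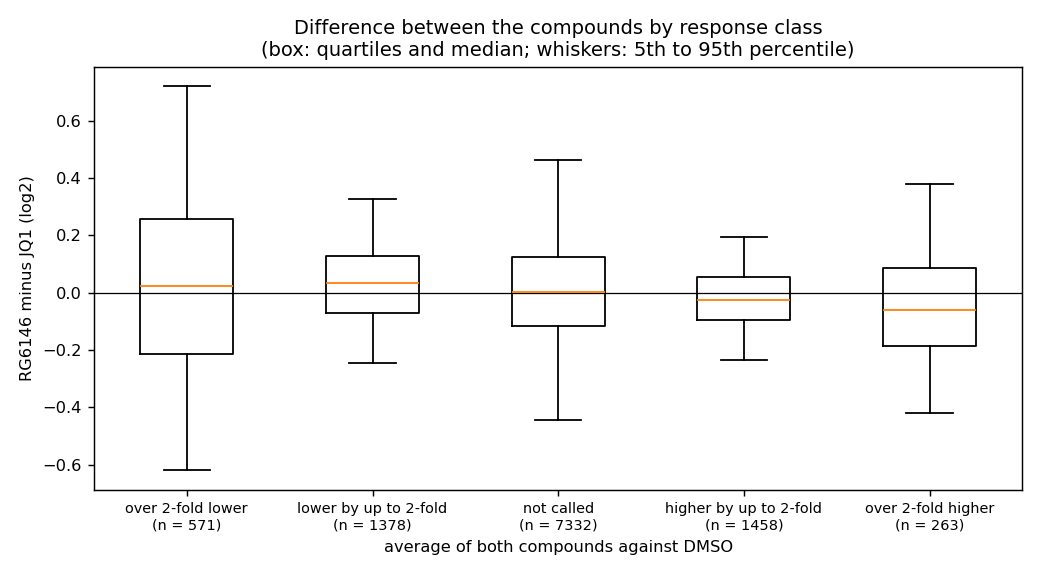
Difference between the compounds (RG6146 minus JQ1, log2) by class of response, from genes over 2-fold lower to genes over 2-fold higher in the average of both compounds against DMSO. Boxes give quartiles and median, whiskers the 5th to 95th percentile, and every median lies between -0.06 and 0.03.

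The strong responders were measured less precisely, and many were low after treatment. The 571 genes over 2-fold lower had a median of 3.27 CPM in treated libraries, and 49.0% had an interval within 2-fold. The 263 over 2-fold higher had a median of 8.55 CPM, and 74.9% lay within 2-fold. Among the 262 strong responders with at least 10 CPM over the 9 libraries and no near-identical copy elsewhere in the genome, a class described further on, 97.3% lay within 2-fold, 69.5% within 1.5-fold, and none had an estimate over 2-fold. Of these, all 110 higher genes and 145 of the 152 lower genes lay within 2-fold.

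Among responders, 3 genes were picked after their values were seen because RG6146 stood above JQ1 in every library. Hdac9, a histone deacetylase gene, measured 1.68, 2.14 and 0.784 CPM under JQ1, 2.96, 2.53 and 2.95 CPM under RG6146 and 23.9, 20.2 and 16.3 CPM under DMSO. Esr1, the estrogen receptor alpha gene, measured 0.421, 0.476 and 0.784 CPM under JQ1, 2.74, 2.78 and 2.27 CPM under RG6146 and 2.26, 2.56 and 2.64 CPM under DMSO. Lzic measured 12.6, 11.7 and 15.4 CPM under JQ1, 19.2, 22.0 and 23.4 CPM under RG6146 and 31.6, 23.6 and 23.7 CPM under DMSO. For Esr1 the RG6146 libraries lay at the DMSO level and the JQ1 libraries below, while for Hdac9 both compounds lay far below DMSO. The log2 differences were 0.84 ± 0.37 for Hdac9, 2.18 ± 0.56 for Esr1 and 0.70 ± 0.17 for Lzic, each with an adjusted p of 0.999 (edgeR). Esr1 rests on levels under 3 CPM, and Lzic was called only where genes were not filtered on low counts (adjusted p = 0.026).

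Gene groups were then compared by 28 lists of pathways, complexes and markers. They hold 720 distinct tested genes, none of them called between the compounds by edgeR, and 34, 4.72%, had an unadjusted p below 0.05. DESeq2 called 1 gene in all, Gm4202, which is in no list, and limma voom called none. The libraries did not overlap for 70 of the 720, 9.72%, against 9.93% of all tested genes, and the interval lay within 2-fold for 642, 89.2%, against 82.3%. Counts of list members that rose or fell against DMSO, in the average of the compounds, stand beside 15.6% higher and 17.7% lower over all tested genes. The medians given next are the lists' differences, RG6146 minus JQ1 on the log2 scale, beside 0.00 over all genes. Library size scaling moved the median of all genes to 0.02 and ERCC scaling to 0.04, so list medians within about 0.05 of 0 have no firm sign.

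Of the P-TEFb, 7SK and BET factors, 37 of 40 were tested and all 37 lay within 2-fold, with a median of -0.01. Against DMSO 13 of them rose and 6 fell in the average of the compounds. Cdc73, a subunit of the PAF elongation complex, measured 58.3, 58.8 and 68.5 CPM under JQ1 and 71.1, 75.7 and 72.0 CPM under RG6146, with RG6146 above in every library (0.24 ± 0.09, unadjusted p = 0.020). Ccnh, the cyclin of the TFIIH kinase, likewise stood higher under RG6146, by 0.29 ± 0.12, and Supt4a, of the DSIF elongation factor, was at -0.19 ± 0.08 with overlapping libraries. Of 14 tested BET inhibitor response markers 13 lay within 2-fold, and 7 rose and 6 fell against DMSO. RG6146 lay wholly above JQ1 in 1 of the 14, Myc, and wholly below in 3, 28.6% together against 9.93% of all genes.

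Most B cell genes fell in the average of the compounds, with like medians for each. Of 29 tested B cell transcription factor genes 20 fell and 2 rose against DMSO, beside 17.7% and 15.6% of all genes, and the median response was -0.61 for JQ1 and -0.52 for RG6146. Ebf1, which specifies the B lineage, measured 161, 159 and 168 CPM under JQ1, 186, 179 and 178 CPM under RG6146 and 285, 291 and 274 CPM under DMSO. Its RG6146 libraries all lay between the JQ1 and DMSO libraries, with a difference of 0.15 ± 0.07 (unadjusted p = 0.043). Runx1, a regulator of blood cell formation, was at 0.56 ± 0.25, and Id3, an inhibitor of E proteins that rose against DMSO, was at -0.31 ± 0.12, both without overlap.

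In the list of B cell receptor and surface genes 41 were tested, of which 28 fell and 1 rose, with median responses of -0.80 for JQ1 and -0.82 for RG6146 and a median difference of 0.03. Cd22, an inhibitory receptor of B cells, measured 10.3, 10.7 and 11.2 CPM under JQ1, 13.7, 17.2 and 10.9 CPM under RG6146 and 52.7, 41.8 and 38.4 CPM under DMSO. The treated groups overlapped through RG6146 replicate 3, and the difference was 0.37 ± 0.18. The antibody light chain gene Igkc was lower under RG6146 in every library, by 0.32 ± 0.12 on the log2 scale (unadjusted p = 0.020). Within 2-fold lay 31 of the 41 surface genes and 26 of the 29 transcription factor genes.

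For the MYC network 10 of 13 genes were tested, all within 2-fold, with a median of -0.03. Among 43 tested MYC targets of growth and nucleotide synthesis 11 rose and 11 fell against DMSO, beside 15.6% and 17.7% of all genes, 42 lay within 2-fold, and the median difference was -0.01. Prps2, an enzyme of nucleotide synthesis, measured 27.8, 27.6 and 25.6 CPM under JQ1 and 34.2, 42.0 and 32.3 CPM under RG6146, beside 38.2, 31.0 and 33.1 CPM under DMSO. RG6146 libraries lay among the DMSO libraries and JQ1 libraries below both, with a difference of 0.42 ± 0.13 (unadjusted p = 0.0040). The folate carrier gene Slc19a1 was at 0.27 ± 0.11 and the ribosome assembly gene Bop1 at -0.30 ± 0.14, both without overlap.

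The 78 tested genes of cytosolic ribosomal proteins were the tightest group. All 78 lay within 2-fold and 77 within 1.5-fold, and 21 rose and none fell against DMSO. The median was -0.04, and 9 had RG6146 wholly below JQ1 and none wholly above, 11.5% against 9.93% of all genes. With ERCC scaling the median was -0.005, against 0.04 for all genes. Rplp1, a protein of the ribosomal stalk, measured 7110.5, 6462 and 6743 CPM under JQ1 and 5571, 5754 and 6235 CPM under RG6146, beside 4749.7, 5178 and 5427 CPM under DMSO. Every RG6146 library was below every JQ1 library and above every DMSO library, and the difference was -0.21 ± 0.06 with an interval of -0.34 to -0.08 (unadjusted p = 0.0027, adjusted p = 0.999, edgeR). It was called only where genes were not filtered on low counts (adjusted p = 0.0045). Its stalk partner Rplp2 was at -0.11 ± 0.05 and Rpl36 at -0.14 ± 0.06, again with no overlap.

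In oxidative phosphorylation 42 of 43 tested nuclear genes lay within 1.5-fold. Ndufb7, a subunit of complex I, gave 56.8, 58.1 and 60.4 CPM under JQ1 and 46.1, 47.8 and 42.9 CPM under RG6146, against 54.0, 53.5 and 52.5 CPM under DMSO. JQ1 libraries were all above DMSO and RG6146 libraries all below, with a difference of -0.36 ± 0.09 (unadjusted p = 0.0012, adjusted p = 0.999, edgeR). The 15 mitochondrially encoded genes had a median of 0.11, none without overlap, and 10 within 2-fold. For glycolysis 18 of 20 tested genes lay within 2-fold, with a median of 0.02.

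Genes of cholesterol synthesis and immediate early genes had the lowest medians among the lists with at least 10 tested members other than the myeloid markers. The 27 tested cholesterol genes had a median of -0.10, and -0.06 with ERCC scaling, and 9 rose and 3 fell against DMSO, with median responses of 0.30 for JQ1 and 0.21 for RG6146. Hmgcs1, which makes the precursor HMG-CoA, measured 277, 253 and 276 CPM under JQ1, 251, 232 and 225 CPM under RG6146 and 172, 165 and 168 CPM under DMSO. Its RG6146 libraries were all lower than its JQ1 libraries and all above DMSO, with a difference of -0.18 ± 0.07 (unadjusted p = 0.023). Its adjusted p was 0.999 (edgeR).

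The 22 tested immediate early genes had a median of -0.10, and -0.04 with ERCC scaling, and 11 rose and 3 fell against DMSO, with median responses of 0.59 for JQ1 and 0.58 for RG6146. Dusp2, a phosphatase that acts on MAP kinases, measured 161, 163 and 166 CPM under JQ1, 143, 129 and 152 CPM under RG6146 and 67.1, 82.7 and 78.2 CPM under DMSO. RG6146 libraries were all below JQ1 libraries, by 0.21 ± 0.09 on the log2 scale. Egr1, a zinc finger factor of the early growth response, went the other way at 0.72 ± 0.34, with overlapping libraries under 8 CPM.

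Of 58 tested histone genes 19 rose and none fell against DMSO, beside 15.6% and 17.7% of all genes. As the libraries read polyadenylated transcripts, histone transcripts that are not polyadenylated may be missed in these counts. Only 38 of the 58 lay within 2-fold, the median difference was 0.02 and the median size of the differences 0.17, against 0.11 over all genes. All but 1 of 78 tested chromatin readers and modifiers lay within 2-fold, with a median of 0.00. Sirt1, a deacetylase that rose under both compounds, measured 98.5, 95.2 and 95.4 CPM under JQ1 and 81.0, 77.4 and 87.7 CPM under RG6146, from 32.5, 31.3 and 35.2 CPM under DMSO. RG6146 stood wholly below JQ1, at -0.23 ± 0.09 (unadjusted p = 0.017). Hdac10 was at -0.42 ± 0.14 and Brpf3, a subunit of acetyltransferase complexes, at -0.52 ± 0.21, both also without overlap.

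In the cell cycle lists 41 of 43 tested genes of G1 and S phase and all 34 of G2 and M phase lay within 2-fold, with medians of -0.01 and -0.02. Ccnd3, the cyclin D3 gene, measured 143, 117 and 101 CPM under JQ1, 81.0, 77.2 and 98.6 CPM under RG6146 and 77.5, 101 and 77.0 CPM under DMSO. The closest JQ1 and RG6146 libraries nearly met, and RG6146 libraries lay in the range of DMSO. The difference was -0.49 ± 0.15 with an interval of -0.83 to -0.16 (unadjusted p = 0.0078, adjusted p = 0.999, edgeR), and it was called only where genes were not filtered on low counts (adjusted p = 0.0032). Ccnd3 overlaps Bysl on the opposite strand. The replication regulator E2f8 was at 0.29 ± 0.12 and the mitotic regulator Foxm1 at -0.24 ± 0.11, both without overlap.

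In the unfolded protein response, taken with the integrated stress response, 16 of 32 tested genes rose and 2 fell against DMSO, beside 15.6% and 17.7% of all genes, and 30 lay within 2-fold with a median of -0.03. Among 24 tested heat shock genes 22 lay within 2-fold, with a median of -0.03. The cochaperone gene Dnajb1, which rose against DMSO, was wholly lower under RG6146 at -0.22 ± 0.10. Of 20 tested p53 targets 6 rose and 2 fell against DMSO, beside the same shares, and 18 lay within 2-fold. None was without overlap, against 9.93% of all genes. For the BCL2 family 9 of 12 tested genes lay within 2-fold, with a median of -0.02 and differences from -0.40 to 1.55.

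In the immune signalling lists, within 2-fold lay 12 of 13 tested NF-kappaB targets (median 0.00), 9 of 13 interferon response genes (-0.08) and 10 of 16 genes of antigen presentation (-0.00). Psmb8, a subunit of the immunoproteasome, measured 95.8, 94.5 and 86.8 CPM under JQ1 and 85.5, 86.5 and 84.3 CPM under RG6146, against 102, 98.4 and 112 CPM under DMSO. RG6146 was below JQ1 in every library by a small step, at -0.11 ± 0.08 with an interval of -0.29 to 0.06. All 14 tested genes of drug transport and xenobiotic response lay within 2-fold, and the efflux pump gene Abcc1 was wholly higher under RG6146 at 0.38 ± 0.16.

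**Figure D3:**
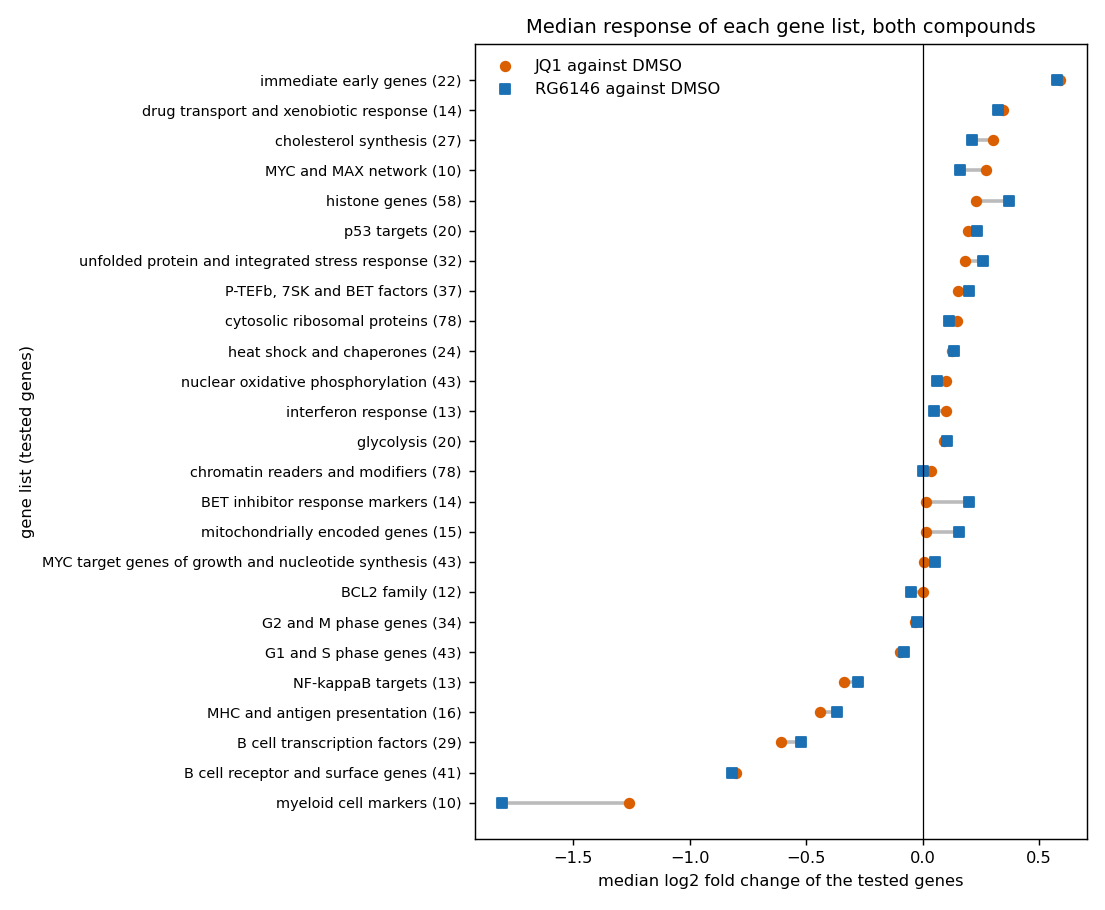
Median log2 fold change against DMSO of the tested genes of each list with at least 10 tested members, for JQ1 (circles) and RG6146 (squares), with the number tested in brackets. The 2 share the DMSO libraries. The symbols of a list lie close together, for example -0.80 and -0.82 for B cell receptor and surface genes, and stand furthest apart for the myeloid markers, at -1.26 and -1.80.

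Markers of other cell types were measured for the same libraries. Summed levels are CPM without TMM. The 14 myeloid markers summed to 58.0 to 292 CPM under JQ1 and 88.6 to 133 CPM under RG6146 (exact permutation test, two-sided, p = 1), with none at 0 in all 6 libraries and JQ1 replicate 2 the highest. Mpo, a granule enzyme of myeloid precursors, was at 82.8 CPM in that library against 12.0 and 6.54 CPM in the other JQ1 libraries. The 10 tested myeloid genes had a median difference of -0.37, and 1 lay within 2-fold. T and NK cell markers summed to 3.03 to 8.11 CPM under JQ1 and 5.79 to 7.81 CPM under RG6146 (p = 0.5 by the same exact test), with Ncr1 and Prf1 at 0. The single T and NK marker tested, Cd2, was at 0.65 ± 0.32. It measured 3.58, 3.09 and 2.35 CPM under JQ1 and 3.88, 5.31 and 5.23 CPM under RG6146, after TMM. Cd2 was thus a large part of the T and NK sum in most libraries, and which cells gave its reads was not tested.

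Erythroid markers summed to 3.53 to 19.2 CPM under JQ1 and 3.90 to 8.87 CPM under RG6146, and none passed the filter (exact permutation test, p = 1). Stromal and endothelial markers summed to 98.4 to 101 CPM under JQ1 and 104 to 111 CPM under RG6146, mostly Vim, with Dcn and Kdr at 0. Those sums did not overlap, and p = 0.1 is the smallest that the exact test of 3 against 3 libraries can give. B cell receptor and surface genes summed to 2143 to 2267 CPM and 2162 to 2362 CPM (exact p = 0.7). What part these cells or RNA of theirs have in any difference between the compounds was not tested.

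The expression level set how precisely the compounds could be compared. Below 5 CPM, a mean over the 6 treated libraries, the 95% interval of the median gene extended 0.84 to each side on the log2 scale, and 33.1% of 2066 genes lay within 2-fold. Between 5 and 20 CPM it extended 0.44, and 91.0% of 3462 genes lay within 2-fold. Between 20 and 100 CPM it extended 0.25, with 96.3% of 3855 genes within 2-fold and 92.3% within 1.5-fold. The interval narrowed further to 0.18 at 100 to 500 CPM and 0.15 at 500 CPM and over, but the shares did not rise further. Within 2-fold lay 93.0% of 1364 and 92.9% of 255 genes, and within 1.5-fold 90.9% and 91.0%. The median size of the differences, taken without their sign, fell with the level, from 0.27 below 5 CPM to 0.14, 0.086, 0.065 and, at 500 CPM and over, 0.054.

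The share of genes whose groups did not overlap moved little with the level, from 8.28% at 100 to 500 CPM to 10.6% at 5 to 20 CPM, against 9.93% overall. Among the 255 genes at 500 CPM and over, RG6146 lay wholly below JQ1 in 21 and wholly above in 4, and the median was -0.04. With ERCC scaling that median was 0.002, against 0.04 for all genes.

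**Figure D4:**
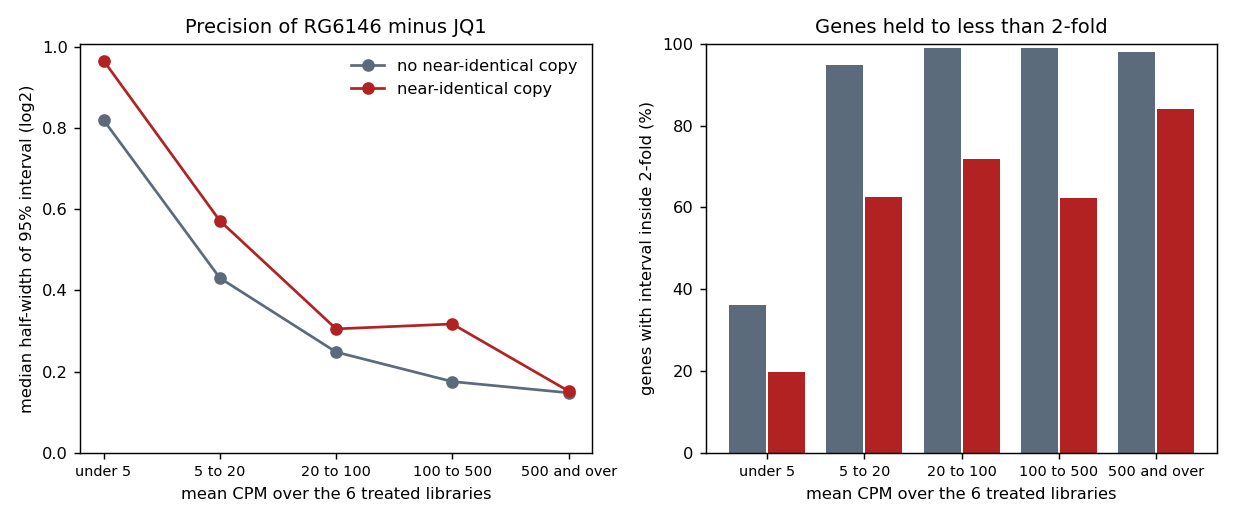
Left, how far the 95% interval of RG6146 minus JQ1 extended to each side (median, log2) by mean CPM over the 6 treated libraries; right, the percentage of genes whose interval lay within 2-fold. Genes without a near-identical copy (grey) reach 99.1% at 20 to 100 CPM, while genes with a copy (red) stay at 71.9%.

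The only gene called was Gm12693 (ENSMUSG00000083179), a processed pseudogene on chromosome 4 (94935621 to 94936103, plus strand, mm10). It measured 5.05, 3.81 and 4.44 CPM under JQ1, 13.2, 14.2 and 10.9 CPM under RG6146 and 8.28, 11.4 and 12.0 CPM under DMSO. JQ1 libraries were the lowest and did not overlap with RG6146 or DMSO, while RG6146 and DMSO overlapped. The log2 difference was 1.51 ± 0.23 with an interval of 1.04 to 2.00 and an adjusted p of 0.0321 (edgeR quasi-likelihood test, Benjamini-Hochberg), beside -1.23 ± 0.23 for JQ1 against DMSO and 0.29 ± 0.20 for RG6146 against DMSO. The call was lost with DESeq2 (adjusted p = 0.0523), limma voom (0.965), a fit of the 6 treated libraries alone (0.0620) and dispersions not moderated robustly (0.327). It was also lost without JQ1 replicate 1, 2 or 3, RG6146 replicate 1 or 2, or DMSO replicate 2 or 3, with adjusted p-values from 0.0508 to 0.305.

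A processed pseudogene is a copy of a spliced transcript put back into the genome, so that a short read may match the parent and the copy alike. How the authors' counting assigned such reads is not stated in the labels. Gm12693 is such a copy of Rwdd1, with 1 mismatch in 470 aligned bases. Rpl9-ps7 and Pcna-ps2, a copy of the ribosomal protein gene Rpl9 and a copy of Pcna, the sliding clamp of DNA replication, are shown with it because they are among the largest differences between the compounds. The stretches shown are of the length of a read, 75 bases, 5′ to 3′, from the GENCODE M21 transcripts of mm10, with the mismatched base in capitals. Each parent stretch lies in the coding sequence.
Gm12693, chr4:94935929-94936003, plus strand: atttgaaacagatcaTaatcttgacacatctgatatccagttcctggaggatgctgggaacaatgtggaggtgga
Rwdd1: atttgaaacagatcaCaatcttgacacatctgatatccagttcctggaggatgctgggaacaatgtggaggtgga
Rpl9-ps7, chr2:70459370-70459444, plus strand: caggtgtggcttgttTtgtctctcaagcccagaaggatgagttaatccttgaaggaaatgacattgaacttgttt
Rpl9: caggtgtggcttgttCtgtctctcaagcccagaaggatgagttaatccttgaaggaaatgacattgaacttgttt
Pcna-ps2, chr19:9284062-9284136, plus strand: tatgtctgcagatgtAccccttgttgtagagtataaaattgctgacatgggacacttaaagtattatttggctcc
Pcna: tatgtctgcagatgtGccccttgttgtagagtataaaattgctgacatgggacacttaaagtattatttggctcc
Each stretch was chosen to hold a mismatch, and it differs from its parent at a single base. Rpl9-ps7 has 3 mismatches in 576 aligned bases and Pcna-ps2 has 6 in 781. A read from elsewhere in a copy may match the parent at every base.

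The largest differences at 10 CPM or more rested on single libraries in several of these copies. Rpl9-ps7 measured 16.8, 19.8 and 19.3 CPM under JQ1 and 26.0, 25.8 and 393 CPM under RG6146, against 20.3, 20.2 and 25.7 CPM under DMSO. Pcna-ps2 measured 9.26, 8.57 and 7.32 CPM under JQ1 and 9.81, 63.5 and 9.996 CPM under RG6146. RG6146 replicate 3 stood apart in the former and RG6146 replicate 2 in the latter, and the differences were 2.99 ± 1.143 and 1.703 ± 0.84.

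In Gm13167 and Gm14303 the spread lay among the JQ1 libraries, and for Gm13167 also among the DMSO libraries. Gm13167, which overlaps Gm26573 on the same strand, measured 7.997, 112 and 210 CPM under JQ1, 1.60, 4.55 and 3.86 CPM under RG6146 and 140, 5.12 and 132 CPM under DMSO. Gm14303, a near copy of the ribosomal protein gene Rps29, measured 328, 1988 and 368 CPM under JQ1 and 322, 318 and 298 CPM under RG6146. For Gm13167 all RG6146 libraries were lower than any other library, and JQ1 replicate 2 alone stood high for Gm14303. Their differences were -5.04 ± 1.84 and -1.52 ± 0.71, with adjusted p-values of 0.999 (edgeR).

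Gm4202, a near copy of Ywhaz, was steadier: 5.68, 3.33 and 6.01 CPM under JQ1, 26.5, 12.1 and 16.8 CPM under RG6146 and 2.82, 6.54 and 3.84 CPM under DMSO. All RG6146 libraries stood above every JQ1 and DMSO library. The difference was 1.88 ± 0.36 (unadjusted p = 2.5e-04, adjusted p = 0.999, edgeR), and DESeq2 called it with an adjusted p of 0.0162. With edgeR it was also called under ERCC scaling (adjusted p = 3.6e-05) and with no filter on low counts (adjusted p = 3.5e-12). It was not called under ERCC scaling with the replicate number fitted as a block.

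All 17 genes named for a call or for the largest differences without overlap had a near-identical copy elsewhere in the genome, at 98.0% to 100% identity over 171 to 301 bases at the transcript's 3′ end. A near-identical copy was defined as a match of at least 95% over at least 75 of the last 300 bases, a class formed after the data had been seen. For 106 tested genes no transcript sequence was at hand, so they were not searched and are counted as without a copy. Gm12693 made up 6.83% of the counts that it, Rwdd1 and their copies gave together. That sum, set mainly by Rwdd1, measured 118 ± 2.73 CPM (SD, n = 3) under JQ1 and 134 ± 4.41 CPM under RG6146, and the libraries did not overlap.

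Over all tested genes 1520, 13.8%, had a near-identical copy. Of these 7.30% had an estimate over 2-fold and 55.3% an interval within 2-fold, against 0.728% and 86.6% of the 9482 without. Among processed pseudogenes alone the shares did not follow the copy: 10.8% over 2-fold and 41.5% within for the 771 with a copy, and 11.6% and 36.2% for the 69 without. The spread within a group was larger too, with a median SD of 0.324 against 0.172 on the log2 scale. At 20 CPM and over, 48 genes had an estimate over 2-fold, and 42 of them had a copy. The other 6, A730017L22Rik, Cnbd2, Rpl13-ps1, Ttc25, Wdr89 and the unnamed ENSMUSG00000100259, all overlapped between the compounds. ENSMUSG00000100259 had no annotation, so it was not searched for copies. Its mean of 1234 CPM and difference of 1.41 were nearly those of Wdr89, 1237 CPM and 1.41. Without a copy 4752 genes remained at that level, and 99.1% lay within 2-fold and 96.1% within 1.5-fold.

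**Figure D5:**
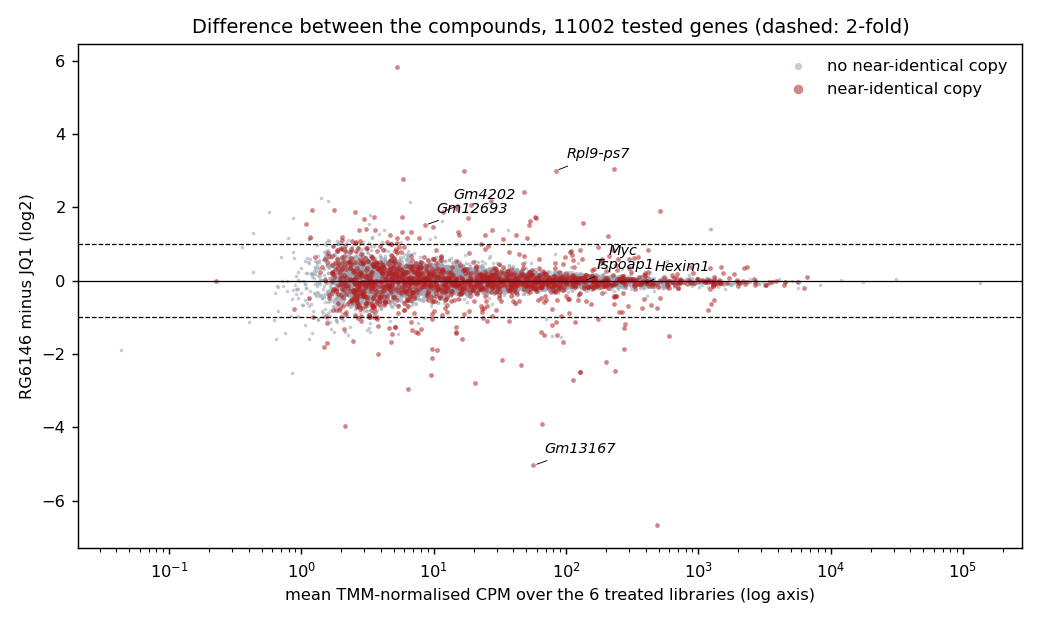
Difference between the compounds (RG6146 minus JQ1, log2) for 11002 tested genes against mean TMM-normalised CPM over the 6 treated libraries (log axis), with dashed lines at 2-fold. Genes with a near-identical copy (red) make up 42 of the 48 points beyond 2-fold at 20 CPM or more, and genes without (grey) narrow towards 0 as the level rises.

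By annotated type, the 9161 protein-coding genes had a median size of difference of 0.10, with 0.710% over 2-fold, 88.3% within 2-fold and none called by edgeR (362 at an unadjusted p below 0.05). The 840 processed pseudogenes had 0.24, with 10.8% over 2-fold and 41.1% within 2-fold. The 45 transcribed processed pseudogenes had 13.3% over 2-fold and 18 within. Antisense transcripts (211), lincRNAs (157) and snoRNAs (77) had medians of 0.01, -0.03 and 0.02, and 65.9%, 68.2% and 55.8% of them lay within 2-fold. These types were also lower, with median levels of 6.01, 7.26 and 4.33 CPM against 23.1 CPM for protein-coding genes. The 21 mitochondrial tRNA genes had a median difference of 0.23, with 1 of them wholly above under RG6146. For snoRNAs and mitochondrial tRNAs too, transcripts that are not polyadenylated may be missed.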

How the data were processed

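Per the labels, 3′ mRNA libraries (QuantSeq, 500 ng of RNA) of Eµ-Myc lymphoma cells were read on a NextSeq 500, single-end, 75 bases. The authors deposited raw counts of reads per gene. Per the submitters' processing notes the tools were HISAT2 2.1.0, featureCounts (Subread), limma, cutadapt 1.7, bcl2fastq 2.17.1.14 and FastQC 0.11.5, with the build mm10. Not given in the sources used here are the annotation release, the use of strand and the handling of reads with several matches. Of 43629 genes, 42548 had a symbol in GENCODE M21, and 92 ERCC spike-in rows entered neither library sizes nor tests.

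The counts were fitted with edgeR 4.0.16 (R 4.3.3), using filterByExpr (minimum count 10), TMM scaling and a robust quasi-likelihood model of all 9 libraries with group as its only term. Log2 fold changes use edgeR's prior count, while standard errors and 95% Wald intervals use unshrunk coefficients. DESeq2 1.42.0 and limma 3.58.1 (voom) were alternatives. In all 9 pairs of libraries from the same group the counts differed beyond sampling noise (chi-square per degree of freedom 6.28 to 15.2). None was therefore taken as a repeat sequencing of the same library. This measure cannot tell separate cultures from separate preparations of the same RNA. The test was also run on simulated counts, but that outcome is not reported here and lends the results no support.

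The comparison, the genes, the 28 lists and the rules were chosen with earlier results of these data known. Named were called genes; the 8 largest differences each way at 10 CPM or more without overlap; the 6 largest rises and falls in the average of the compounds; 12 fixed genes; and up to 3 members of each list by smallest p. Some genes that the rule names are not reported here.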

Additional observations from a re-analysis of the deposited data

Results flagged for a closer look

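Gm12693, the processed pseudogene copy of Rwdd1, was the only gene called between the compounds in the main model, with a log2 difference of 1.51 (RG6146 minus JQ1). Its call was lost with DESeq2, with limma voom and when any JQ1 library was left out. Raw counts were 24, 16 and 17 under JQ1 and 58, 56 and 48 under RG6146, against 44, 40 and 50 under DMSO. RG6146 was higher in all 3 libraries.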

How the results depend on the processing

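The count of 1 gene called between RG6146 and JQ1 was 0 with limma voom, with a mean of at least 10 CPM, with the 6 treated libraries only, with dispersions not robust, in a test against 1.5-fold and, in an alternative chosen after seeing the data, among genes without a near-identical copy. The number called was 4 with ERCC scaling and 17 with no filter on low counts. With ERCC scaling and the replicate number fitted as a block it was 1. When a library was left out it was 0 to 2. It was 2 without JQ1 replicate 1 or RG6146 replicate 3, and 0 without JQ1 replicate 2 or 3 or DMSO replicate 2 or 3. Without JQ1 replicate 1 the calls were Gm4737 and Tubb4b-ps1, without RG6146 replicate 1 Slfn3 and without RG6146 replicate 2 Ppia, in place of Gm12693. Fitting that block with TMM scaling gave 0 (Gm12693 at an adjusted p of 0.106 by edgeR). After TMM scaling, deviations of same-numbered JQ1 and RG6146 libraries from their group means correlated at only -0.02, 0.10 and -0.00. The ERCC share of counts, though, fell with the replicate number in every group. For replicates 1 to 3 it was 1.37%, 1.22% and 0.958% under JQ1 and 1.35%, 1.17% and 0.972% under RG6146. Under DMSO it was 1.51%, 1.18% and 1.13%. Whether same-numbered libraries were prepared together was not tested. At an unadjusted p below 0.05 the main model had 427 genes. Genes within 2-fold numbered 8516 to 9020 without a library, against 9052. The average of both compounds against DMSO called 3670 genes, 1599 with ERCC scaling and 3069 to 3762 without a library. The median difference of genes over 2-fold higher, -0.0615, was -0.0177 with ERCC scaling, -0.0230 with ERCC scaling and the block, -0.0895 with no filter, and -0.0881 to -0.0274 without a library. That of genes over 2-fold lower, 0.0241, was 0.00299 to 0.148 without a library, the highest without JQ1 replicate 2, and 0.0829 with ERCC scaling, 0.0726 with ERCC scaling and the block and 0.00829 with no filter. The cause was not tested. No value of a called gene changed direction. Of 2483 values of named genes under 22 alternatives, 2426 kept their side of the threshold and lay within a standard error. The bins of expression level were not rerun. The comparison was least precise below 5 CPM, where most intervals reached 2-fold or beyond.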
